A study of Mus musculus with 4 samples.

Results

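The genes of transforming growth factor beta (TGF-beta) and bone morphogenetic protein (BMP) signalling were followed in RNA-seq of primary mouse astrocyte cultures. The members were the protein-coding genes of the deposited table whose symbol names a BMP, a BMP or TGF-beta receptor, a TGF-beta, a growth and differentiation factor (GDF), an inhibin beta chain, a SMAD or 1 of the ID proteins 1 to 4. The rule used symbols only and no measured value, but it was chosen with earlier results of these data known. It found 41 genes among 25393 listed genes, of which 16592 were protein-coding. Of the 41, 37 had a mean of at least 1 normalized count and were tested, and Bmp5, Bmp10, Gdf7 and Inhbc were below that minimum.

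Ligands of this family are secreted dimers that bring type II and type I serine/threonine kinase receptors together at the cell surface. The type I receptor then phosphorylates a receptor-regulated SMAD protein, which joins SMAD4 and enters the nucleus: TGF-beta and activin receptors use SMAD2 and SMAD3, and BMP receptors use SMAD1, SMAD5 and SMAD9. BMP signals switch on the ID genes, whose products block basic helix-loop-helix factors, and BMPs are known to promote the astrocyte fate of neural precursors, whereas TGF-beta is known for its part in reactive astrocytes and in matrix production.

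The study asked how loss of Tet1, a dioxygenase that oxidizes 5-methylcytosine in DNA, changes astrocytes. There were 2 WT libraries and 2 libraries labelled Tet1 KO (tet1-/-, a constitutive knockout carried by every cell of the mouse). All 4 cultures were untreated and came from C57BL/6 mice at postnatal day 1, with cortex and hippocampus pooled from 2 mice per isolation. Cells grew for about 7 days in coated flasks in medium with serum, were shaken at 260 rpm to remove loosely attached cells and were collected 24 h later. Nothing in the labels says whether the libraries of a genotype came from separate litters, so p-values measure only the spread between these libraries, which may be technical.

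The WT libraries held 18749610 and 22673555 reads on genes, and those labelled KO held 20702980 and 22403163. A value of 1 read was worth 0.901 to 1.07 normalized counts, the authors' read counts divided by a size factor per library. The WT libraries had 266 and 121 normalized counts of Tet1 itself and those labelled KO had 173 and 463, so its level was not lower under the KO label (log2 fold change 0.66 ± 0.65 (SE), limma adjusted p = 0.691). The deleted exons are not given in the sources used here, and a count over the whole gene does not test them. The 9 astrocyte markers checked were all present. Levels are given as FPKM (fragments scaled to gene length and to the reads on genes of the library). The markers summed to 1490 and 1434 FPKM in WT and to 2570 and 380.0 FPKM in replicates 1 and 2 labelled KO. Gfap alone held 687 and 765 FPKM in WT and 1871 and 117 FPKM in those replicates. No gene passed an adjusted p of 0.05 between the labels in limma (0% of 22094 tested) or in edgeR (0%), against 12.4% at an unadjusted p under 0.05 in edgeR.

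Most of the pathway was measurable in these cultures. A mean of at least 1 FPKM was reached by 29 of the 41 members (70.7%), against 68.8% of all protein-coding genes listed, and 17 members reached 10 FPKM. The highest levels per gene length belonged to the ID genes and to Bmp6. Id3 averaged 349 FPKM over the 4 libraries, Id1 182 FPKM, Bmp6 122.6 FPKM, Id2 86.7 FPKM and Id4 49.98 FPKM. Among receptors the type I BMP receptor Bmpr1a had the highest mean level at 37.2 FPKM, and among SMAD genes Smad3 had 25.2 FPKM and Smad4 24.6 FPKM. Of the TGF-beta ligands, Tgfb3 averaged 27.8 FPKM, Tgfb2 10.7 FPKM and Tgfb1 1.35 FPKM. Of the 12 members under 1 FPKM, Bmp5, Bmp10, Bmp15 and Inhbc had at most 2 reads in any library. That is under the 3 reads taken here as the limit that a count of 0 allows, so no fold is read from them. Bmp15 still averaged at least 1 normalized count, so it is among the 37 tested and the members counted below as not overlapping.

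**Figure D1:**
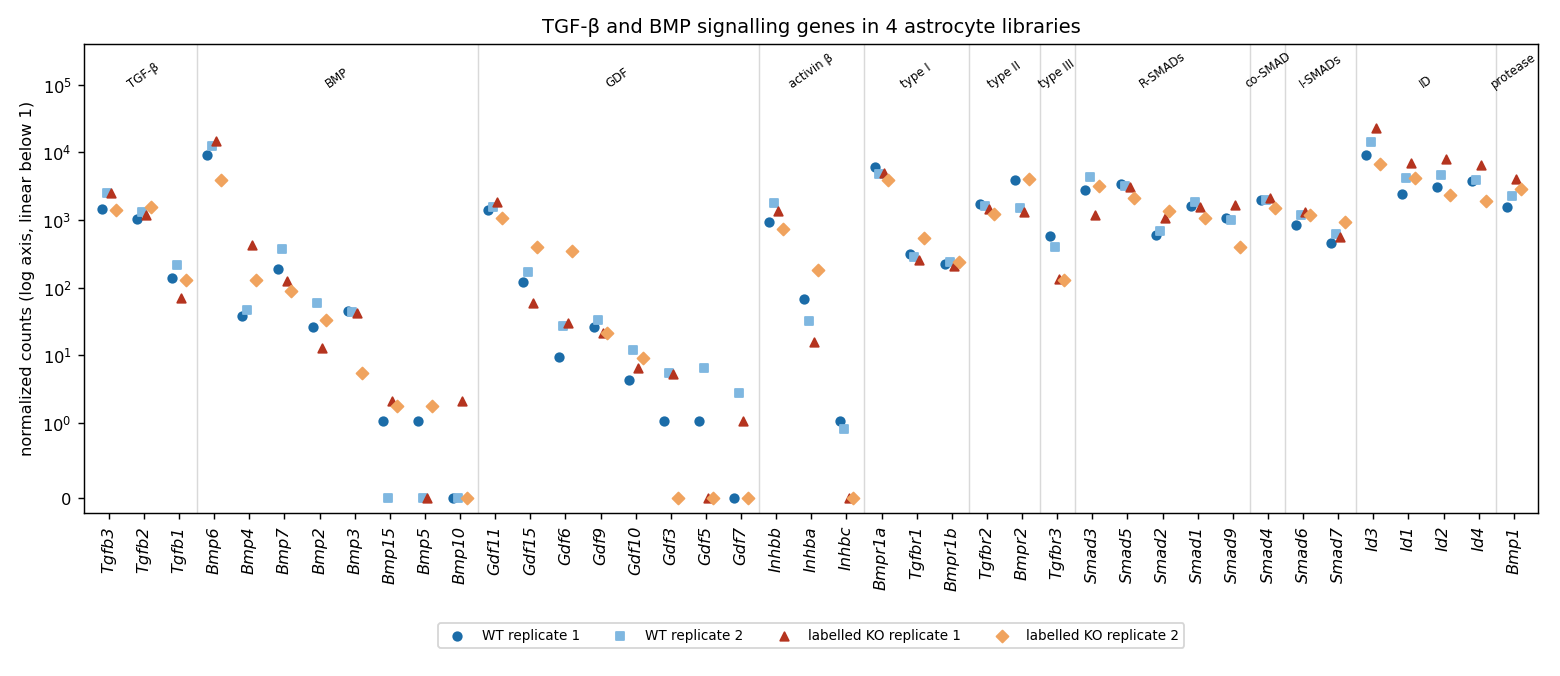
Normalized counts of the 41 members in each of the 4 libraries, on a log axis that is linear below 1, with 1 symbol per library and genes grouped by role. Id3 reached 22705 in replicate 1 labelled KO, Bmp4 lay at 38.4 and 46.9 in WT, against 434 and 129 under the KO label, and the symbols of Tgfbr3 split by label.

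Few members were called between the labels in the fits to all 4 libraries. At an unadjusted p under 0.05 in limma, run on log2(normalized count + 1), Bmp4 and Smad2 were higher and Tgfbr3 and Bmp7 lower in the libraries labelled KO. That is 2 of 37 in each direction, beside a background over all genes tested of 4.54% higher and 9.18% lower. None of the 37 passed an adjusted p of 0.05 in limma, where the smallest was 0.182, or in edgeR. In edgeR 5 had an unadjusted p under 0.05, beside 12.4% of all genes. DESeq2 on the recovered reads, which treats the spread of single genes differently, called 3 at an adjusted p under 0.05: Bmp4 and Gdf6 higher and Tgfbr3 lower, with backgrounds of 1.64% higher and 4.62% lower among the 17382 genes that it gave an adjusted p. It gave none to Bmp15, Gdf3 and Gdf5. The WT values and the values under the KO label did not overlap for 16 members, 7 higher and 9 lower under the KO label, or 43.2% of those tested, beside 47.9% of all genes. The median log2 fold change of the tested members was -0.07, as it was over all genes tested (-0.07). In bulk RNA, fewer cells of a type and less RNA per cell cannot be told apart, which holds for every difference given here. Without replicate 1 labelled KO, limma called 5 members higher and 5 lower at an unadjusted p under 0.05, in a fit that called 8.24% and 13.7% of all genes. Without replicate 2 labelled KO it called 5 and 2, beside 4.1% and 9.28%. Without WT replicate 1 there was 1 call in each direction, beside 1.24% and 3.9%, and without WT replicate 2 there were 0 higher and 1 lower, beside 2.19% and 4.06%; none of these fits called a gene at an adjusted p under 0.05. In these fits the lone library of a label was assumed to vary like those of the other.

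**Figure D2:**
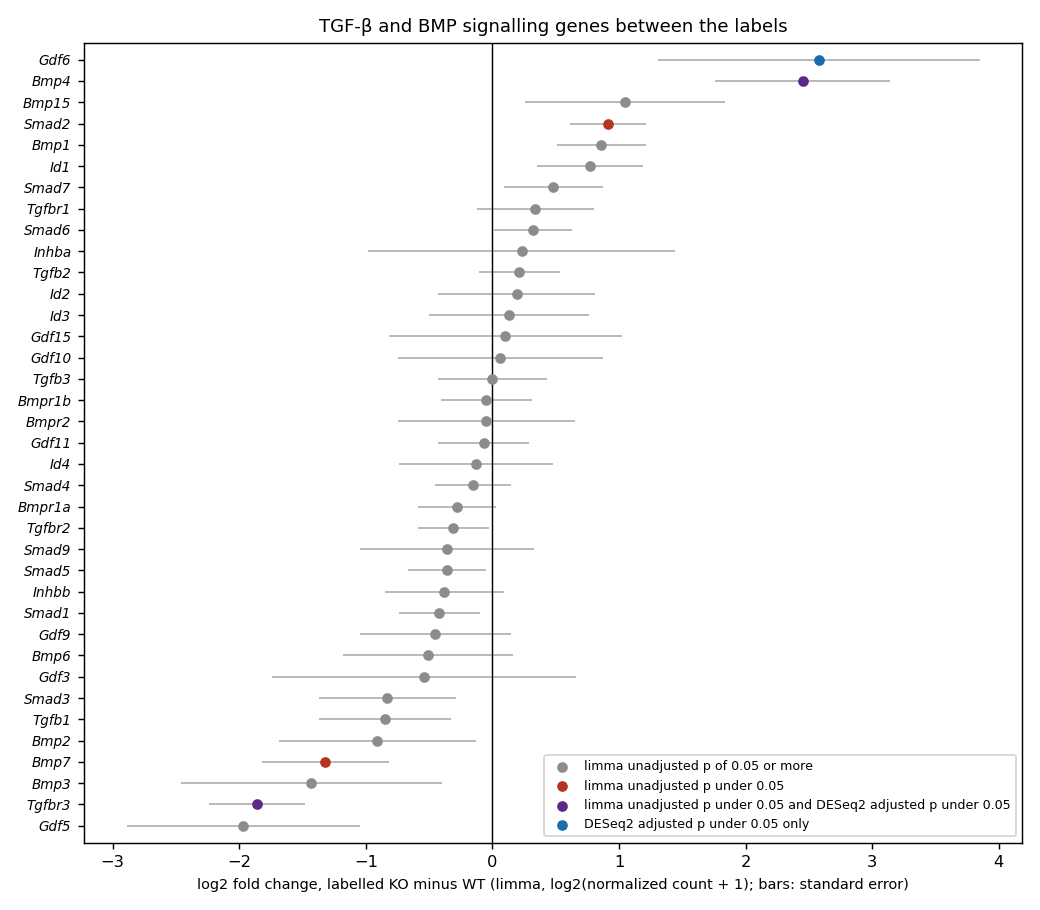
Log2 fold change of the 37 tested members, libraries labelled KO minus WT, from limma on log2(normalized count + 1), with bars for the standard error and colours for the tests passed. Values run from -1.97 (Gdf5, listed at 0 reads under the KO label) to 2.58 (Gdf6), and most bars of the SMAD and receptor genes lie near or across 0.

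Bmp6, the BMP ligand with the highest level, had 9099 and 12584 normalized counts in WT, against 14696 and 3851 in replicates 1 and 2 labelled KO. Both the highest and the lowest library carried the KO label, 3.82-fold apart, and the fold change between labels (-0.51 ± 0.67 on the log2 scale, SE) was smaller than its error. It turned to 0.46 without replicate 2 labelled KO. Bmp4, a ligand that signals through Bmpr1a and Bmpr1b, had 38.4 and 46.9 normalized counts in WT, against 434 and 129 under the KO label. Both KO-labelled libraries lay above both WT libraries, with a ratio of means of 6.59, although they differed 3.36-fold from each other. The log2 fold change of Bmp4 was 2.45 ± 0.69 (SE), with an unadjusted limma p of 0.0140 and an adjusted p of 0.26 in limma and 0.0064 in DESeq2. The unadjusted limma p was 0.145 without WT replicate 1 and 0.119 without WT replicate 2. The gene lies on the minus strand at chr14:46383520-46390669 (mm10), where the annotated genes Gm15217 and Gm15222 overlap it, and whether reads were counted by strand is not given in the sources used here.

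Bmp7, a ligand of the same receptor class, had 191 and 373 normalized counts in WT, against 126 and 90.1 under the KO label. The KO-labelled libraries were the lower pair, 2.61-fold in the means, although the WT libraries also differed from each other. Its log2 fold change was -1.32 ± 0.50 (SE; limma unadjusted p = 0.0423, adjusted p = 0.355), and without any 1 library the unadjusted limma p rose to between 0.0634 and 0.268. With no variance trend it was 0.0615. The sum over the 8 BMP ligands, most of it Bmp6, was 121 and 161 FPKM in WT and 181 and 53.4 FPKM under the KO label. Bmp2 and Bmp3 ran from 12.8 to 59.8 and from 5.41 to 44.8 normalized counts. Bmp3, which can oppose other BMPs, was lowest in replicate 2 labelled KO and within 42.8 to 44.8 in the other libraries.

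Bmp1, which carries the BMP name but is a metalloprotease that trims procollagens and releases ligands from the antagonist chordin, had 1566 and 2235 normalized counts in WT, against 4069 and 2849 under the KO label. The labels did not overlap, and the log2 fold change was 0.86 ± 0.35 (SE; limma unadjusted p = 0.0512, adjusted p = 0.366). Leaving out any 1 library moved the fold change of Bmp1 to between 0.61 and 1.12 (log2).

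Of the 8 GDF genes listed, Gdf11 had the highest level. This ligand, which signals through activin-type receptors, had 1419 and 1576 normalized counts in WT, against 1868 and 1089 under the KO label, and the labels overlapped. Gdf6, a BMP-like ligand of skeletal and eye development, had 9.60 and 27.6 normalized counts in WT, against 30.0 and 349.7 under the KO label. Replicate 2 labelled KO stood 11.7-fold above replicate 1, whose value was close to that of WT replicate 2. The log2 fold change of Gdf6 was 2.58 ± 1.27 (SE) in limma (adjusted p = 0.441) and 3.35 in DESeq2 (adjusted p = 0.0390), and in limma it was 0.83 without replicate 2 labelled KO. Gdf15, a stress-induced hormone that acts on a receptor of the hindbrain, was likewise highest in that library, at 398 normalized counts against 59.9 in replicate 1 labelled KO and 122 and 171 in WT. Gdf5, Gdf3, Gdf7 and Gdf10 stayed at or under 11.95 normalized counts in every library, and Gdf5 was listed at 0 in both KO-labelled libraries. Gdf9, known from the oocyte, lay between 21.4 and 33.1.

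The TGF-beta ligands did not separate by label, apart from Tgfb1. Tgfb3 had 1459.6 and 2472 normalized counts in WT, against 2535 and 1423 under the KO label, so that each label held a high and a low library. Its log2 fold change was 0.00 ± 0.43 (SE) in limma. Tgfb2 ran from 1049 to 1580.0 over the 4 libraries, with a log2 fold change of 0.21 ± 0.32 (SE). Tgfb1, the ligand that microglia make at high level, had 139 and 219 normalized counts in WT, against 70.6 and 132 under the KO label. Its KO-labelled values were the lower pair, with 132 close to 139 in WT, by -0.85 ± 0.52 on the log2 scale (SE; limma adjusted p = 0.524). All 10 microglia markers checked lay lower with it: they had a negative log2 fold change, 8 at an unadjusted limma p under 0.05 (9.18% of all genes were called lower), and their sum was 57.6 and 86.04 FPKM in WT and 23.6 and 11.4 FPKM under the KO label, with P2ry12 at 0 reads in replicate 1 labelled KO. Their part in the level of Tgfb1 was not tested.

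Of the activin genes, Inhbb, the beta B chain of activins and inhibins, had 947 and 1762 normalized counts in WT, against 1345 and 735 under the KO label, with the labels overlapping. Inhba, the beta A chain, was low in WT (68.3 and 32.2) and differed 11.6-fold between the KO-labelled libraries (16.1 and 186).

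Among the receptors, Tgfbr3 showed the clearest separation of the labels. This type III receptor, also called betaglycan, has no kinase and presents TGF-beta, above all TGF-beta 2, to the signalling receptors, and it also binds inhibin. Tgfbr3 had 585 and 399 normalized counts in WT, against 134 and 132 under the KO label. The KO-labelled libraries differed by a factor of 1.02 and both were below the lower WT library. The means differed 3.71-fold, with a log2 fold change of -1.86 ± 0.38 (SE), an unadjusted limma p of 0.00365 and an adjusted p of 0.182 in limma and 0.00409 in DESeq2. The fold change stayed between -2.13 and -1.58 when a library was left out, and the unadjusted limma p was 0.0556 without WT replicate 1. The gene spans chr5:107106570-107289629 (mm10, minus strand), and 4 annotated Gm genes overlap it.

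The signalling receptors differed less. Bmpr1a, the main type I BMP receptor here, had 6013 and 4762 normalized counts in WT, against 4962 and 3893 under the KO label. Bmpr1b, its paralog, stayed between 209.8 and 244, a log2 fold change of -0.05 ± 0.36 (SE). Tgfbr2, the type II receptor that binds TGF-beta, had 1722 and 1626 in WT, against 1476 and 1227 normalized counts under the KO label. The KO-labelled values of Tgfbr2 were the lower pair, by -0.31 ± 0.28 on the log2 scale (SE; limma adjusted p = 0.652). Its type I partner Tgfbr1 ran from 260.1 to 547 normalized counts, both ends of the range in KO-labelled libraries. Bmpr2, the type II BMP receptor, was high in 1 library of each label: 3854 and 1499 in WT, 1316 and 4095 under the KO label.

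Of the receptor-regulated SMAD genes, only Smad2 had an unadjusted limma p under 0.05. Smad2, which carries TGF-beta and activin signals, had 601 and 688 normalized counts in WT, against 1077 and 1351 under the KO label, so both KO-labelled libraries were higher, by 1.88-fold in the means. The log2 fold change was 0.91 ± 0.30 (SE; limma unadjusted p = 0.0272, adjusted p = 0.314), and the unadjusted limma p was 0.130 without WT replicate 1, 0.0870 without WT replicate 2, and 0.0738 with no variance trend. Smad3, the other SMAD of this branch, did not follow it: 2768 and 4356 normalized counts in WT, against 1197 and 3174 under the KO label, lowest in replicate 1 labelled KO and overlapping otherwise.

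The BMP-branch genes Smad1 and Smad5 were somewhat lower under the KO label without reaching the threshold. Smad5 had 3446 and 3188 normalized counts in WT, against 3102 and 2136 under the KO label, a log2 fold change of -0.36 ± 0.31 (SE), and Smad1 differed by -0.42 ± 0.32. Smad9 was the most uneven SMAD gene, with 1657 normalized counts in replicate 1 and 394 in replicate 2 labelled KO, on either side of 1073 and 997 in WT. Smad4, the partner shared by both branches, stayed between 1529.5 and 2101 normalized counts (log2 fold change -0.15 ± 0.30, SE). The inhibitory SMAD genes, which the pathway switches on against itself, had positive log2 fold changes close to their errors (SE), 0.32 ± 0.31 for Smad6 and 0.48 ± 0.39 for Smad7. Smad6 had 855 and 1172 normalized counts in WT, against 1326 and 1179.8 under the KO label, and Smad7 had 451 and 612 in WT, against 571 and 938.

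Of the ID genes, read as targets of BMP signalling, Id2, Id3 and Id4 differed more between the KO-labelled libraries than between the labels. All 4 ID genes were highest in replicate 1 labelled KO, and these 3 were lowest in replicate 2 labelled KO. Id3 had 9216 and 14050.0 normalized counts in WT, against 22705 and 6833 under the KO label. Id2 had 3088 and 4580.4 in WT, against 7873 and 2343 under the KO label. Id4 had 3839 and 3889.8 in WT, against 6582 and 1898 under the KO label. The WT values of these genes lay between the KO-labelled values, which were 3.32-fold apart for Id3, 3.36-fold for Id2 and 3.47-fold for Id4. Id1 had 2467 and 4117 normalized counts in WT, against 7005 and 4193 under the KO label. Its KO-labelled values were both above WT, the lower by a small margin, with a log2 fold change of 0.77 ± 0.42 (SE; limma adjusted p = 0.475). For Id2, Id3 and Id4 the log2 fold changes were 0.19, 0.13 and -0.13 with errors of 0.61 to 0.63, and the sign of each turned when a KO-labelled library was left out. Id4 overlaps 2 other annotated genes, and its sign also turned in edgeR (0.10) and in DESeq2 (0.13). Summed over the 4 genes the level was 477 and 685 FPKM in WT, 1067 FPKM in replicate 1 and 440.0 FPKM in replicate 2 labelled KO. Under the KO label, 9 of 9 astrocyte markers were higher in replicate 1 than in replicate 2. Over all genes tested, the median of replicate 1 minus replicate 2 labelled KO was -0.06 on the log2 scale. Of the 4 libraries, replicate 1 labelled KO was the highest for 4 of the 9 markers, and replicate 2 the lowest for 8. Gfap had 117 FPKM in replicate 2 against 1871 FPKM in replicate 1, and Aldoc 24.2 FPKM against 289 FPKM. The KO-labelled replicates differed from 1.16-fold for Gja1 to 17.6-fold for Gfap. Between the labels, 7 of the 9 markers had a negative log2 fold change and 2 a positive one, with a median of -0.68. The labels did not overlap for 6 of them (66.7%), 5 lower and 1 higher under the KO label, beside 47.9% of all genes. The part of these markers in the ID levels was not tested.

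Sequences before RefSeq start sites of Id2 and Id4 are shown because SMAD complexes are known to bind short motifs before ID genes. The sequences were those of RefSeq (GRCm38), in which 33 start sites of 27 members had an entry, and the 250 bases before each start were searched on both strands. The SMAD box CAGAC stood in 13 of the 33 windows (39.4%), beside 42.2% of 32851 windows of all genes, and the GC-rich box GGCGCC, known from BMP-responsive promoters, in 7 (21.2%) beside 9.59%. The GC-rich box reads the same on both strands and can share at most 1 base with a SMAD box. Id2 and Id4 each held 1 GC-rich box, Id3 held 2 SMAD boxes, and Bmp4, shown for comparison, held neither. Capitals mark the GC-rich box in the following sequences, given 5′ to 3′ on the strand of the gene. For Id2 only the 89 bases outside annotated exons are shown (chr12:25096254-25096342, minus strand), and for Id3 none, since its window lies in an exon. The Id2 bases lie inside the annotated span of the gene (chr12:25093799-25097140), so they and their GC-rich box are not upstream of the whole gene. No sequence is shown for Id1. The Id4 window is chr13:48260866-48261115 on the plus strand, and that of Bmp4 is chr14:46390670-46390919 on the minus strand.
Id2: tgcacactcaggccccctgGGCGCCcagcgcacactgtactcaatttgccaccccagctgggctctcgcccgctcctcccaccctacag
Id4: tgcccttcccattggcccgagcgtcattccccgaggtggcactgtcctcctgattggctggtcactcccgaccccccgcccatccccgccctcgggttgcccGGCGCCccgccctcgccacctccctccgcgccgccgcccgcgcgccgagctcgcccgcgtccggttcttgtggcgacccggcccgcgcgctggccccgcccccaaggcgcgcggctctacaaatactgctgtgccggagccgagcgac
Bmp4: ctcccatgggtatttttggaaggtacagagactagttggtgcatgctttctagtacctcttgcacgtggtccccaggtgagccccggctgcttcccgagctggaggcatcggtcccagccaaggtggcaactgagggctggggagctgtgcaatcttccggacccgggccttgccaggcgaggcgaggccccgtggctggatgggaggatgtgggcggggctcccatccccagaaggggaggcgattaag
A match or its absence describes these letters only.

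**Figure D3:**
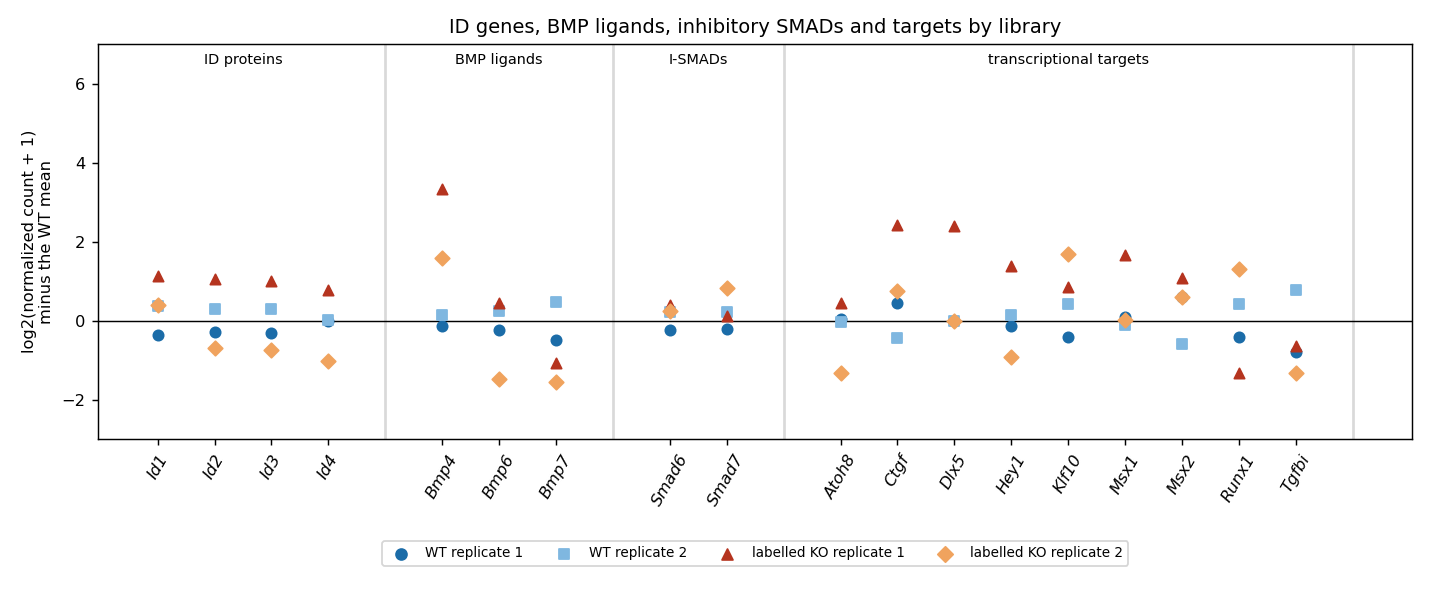
Log2(normalized count + 1) minus the mean of the WT libraries for the ID genes, the BMP ligands and inhibitory SMAD genes over 1 FPKM, and transcriptional targets of the pathway, with 1 symbol per library. The ID genes, Bmp6, Atoh8 and Hey1 have replicate 1 labelled KO at the top and, except Id1, replicate 2 at the bottom, whereas Runx1 shows the opposite order of these libraries.

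The KO-labelled libraries were uneven for the tested members about as often as for all genes tested. Of the 37 tested, 15 (40.5%) differed more than 2-fold between the KO-labelled libraries and 8 (21.6%) between the WT libraries, beside 38.3% and 23.7% of all genes tested. Among the 30 members with a mean of at least 50 normalized counts, 12 (40.0%) and 3 did so, beside 28.6% and 10.7% of all genes at that level. The median of replicate 1 minus replicate 2 labelled KO was 0.27 for the members on the log2 scale and -0.06 for all genes. Higher in replicate 1 were the ID genes, Bmp6, Bmp4 and Smad9, and higher in replicate 2 were Gdf6, Inhba, Gdf15 and Bmpr2.

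The other genes of the pathway, 60 listed and 57 tested, were described by the same tests. At an unadjusted limma p under 0.05, 5 were higher (Thbs1, Ltbp2, Nog, Grem1 and Klf10) and 5 lower (Acvr1b, Rgma, Inha, Sostdc1 and Chrdl1), beside the background of 4.54% and 9.18%. None passed an adjusted p of 0.05 in limma, where the smallest was 0.137, or in edgeR. In edgeR 12 had an unadjusted p under 0.05, beside 12.4% of all genes. In the fits that leave out 1 library, limma called 11 higher and 8 lower without replicate 1 labelled KO, beside 8.24% and 13.7% of all genes, and 7 and 4 without replicate 2, beside 4.1% and 9.28%. Without WT replicate 1 or 2 there were 1 and 3 higher and 0 lower, beside 1.24% and 2.19% higher and 3.9% and 4.06% lower. DESeq2 called Thbs1, Ltbp2, Sostdc1 and Chrdl1 at an adjusted p under 0.05, 2 higher and 2 lower, beside 1.64% higher and 4.62% lower over all genes. The median log2 fold change was 0.16, against -0.07 over all genes, and 22 genes (38.6%) did not overlap between the labels, beside 47.9% of all genes.

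The genes listed for latent TGF-beta binding and activation held 2 of these 4 calls, Ltbp2 and Thbs1. They did not move together: of 8 tested, 5 had a positive and 3 a negative log2 fold change, with a median of 0.61. The labels did not overlap for 4 of them, 3 higher and 1 lower under the KO label. The lower one, Ltbp4, had 624 and 993 normalized counts in WT, against 381 and 540 under the KO label. Its log2 fold change was -0.79 ± 0.39 (SE; limma adjusted p = 0.439). Whether Ltbp2 binds or stores TGF-beta in these cultures was not tested. Ltbp2, a matrix protein of the latent TGF-beta binding family, had 2241 and 2919.6 normalized counts in WT, against 17280.4 and 10513 under the KO label. Both KO-labelled libraries were well above WT, with a log2 fold change of 2.40 ± 0.37 (SE; adjusted p = 0.137 in limma and 4.22e-05 in DESeq2). Thbs1, thrombospondin 1, which can release active TGF-beta from its latent form, had 10403 and 16053 normalized counts in WT, against 46932 and 59784 under the KO label. Its values did not overlap either, and the log2 fold change was 2.04 ± 0.39 (SE; adjusted p = 0.169 in limma and 0.000773 in DESeq2). The unadjusted limma p of Thbs1 was 0.0776 without WT replicate 1.

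The secreted antagonists divided by direction. Nog (noggin), which traps BMPs, had 192 and 249 normalized counts in WT, against 1179.6 and 367 under the KO label, a log2 fold change of 1.58 ± 0.61 (SE). It shared with Bmp4 its order of libraries. Chrdl1, an antagonist that astrocytes secrete, had 3685 and 1567 in WT, against 708 and 223 normalized counts under the KO label. Sostdc1, an antagonist of BMP and Wnt signals, had 907 and 1140.3 in WT, against 226 and 34.3 under the KO label. Both fell under the KO label in DESeq2, with adjusted p = 0.0122 for Chrdl1 and 0.00834 for Sostdc1, while limma gave 0.247 and 0.232. Grem1 (gremlin) was near the limit of 3 reads in all but replicate 2 labelled KO, where it had 37.9 normalized counts. Fstl1, the antagonist gene with the highest level, had 15406 and 16674 in WT, against 23378 and 21490.2 under the KO label, a log2 fold change of 0.48 ± 0.31 (SE).

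Among the remaining receptors, co-receptors and ligands, Acvr1b, a type I activin receptor, had 1935 and 2622 normalized counts in WT, against 1436 and 776 under the KO label. Rgma, a BMP co-receptor, had 4387 and 5409.8 in WT, against 3089 and 1806 under the KO label, and Inha, the inhibin alpha chain, had 207 and 239 in WT, against 105 and 104. In each of these 3 genes both KO-labelled libraries were below both WT libraries, with log2 fold changes of -1.09, -1.04 and -1.09 and limma adjusted p-values of 0.348, 0.335 and 0.34. Ski, a nuclear repressor of SMAD proteins and the intracellular regulator with the highest level, had 5618 and 6722 normalized counts in WT, against 8814 and 5366 under the KO label, with the labels overlapping.

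The transcriptional targets had no common order of the KO-labelled libraries: of 10, 7 were higher in replicate 1 and 3 in replicate 2. Between the labels, 7 had a positive and 2 a negative log2 fold change, and Runx1 rounded to 0. Their median was 0.85, beside -0.07 over all genes. At an unadjusted limma p under 0.05, 1 of the 10 was higher, beside 4.54% of all genes. The labels did not overlap for 2 (20.0%), beside 47.9% of all genes. Ctgf, a matrix-associated growth factor and the target with the highest level, had 10745 and 5778 normalized counts in WT, against 42511 and 13303 under the KO label. Klf10, an early response gene of TGF-beta, had 149 and 267 in WT, against 362 and 639.9 under the KO label, a log2 fold change of 1.27 ± 0.48 (SE; limma adjusted p = 0.358). Among the mural cell markers, Acta2, smooth muscle actin, was also high under the KO label, with 55.6 and 239.8 FPKM in WT, against 564 and 1395 FPKM. The other 5 mural markers did not follow it: 4 of 5 had a negative log2 fold change, Kcnj8 was at 0 in replicate 2 labelled KO, and their sum was 27.9 and 36.6 FPKM in WT, against 29.2 and 21.2 FPKM. The 6 cycling markers summed to 2.01 and 10.3 FPKM in WT, against 24.4 and 44.1 FPKM under the KO label. The part of the cells behind these markers in the levels of Gdf6, Nog, Thbs1 and Ltbp2 was not tested.

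**Figure D4:**
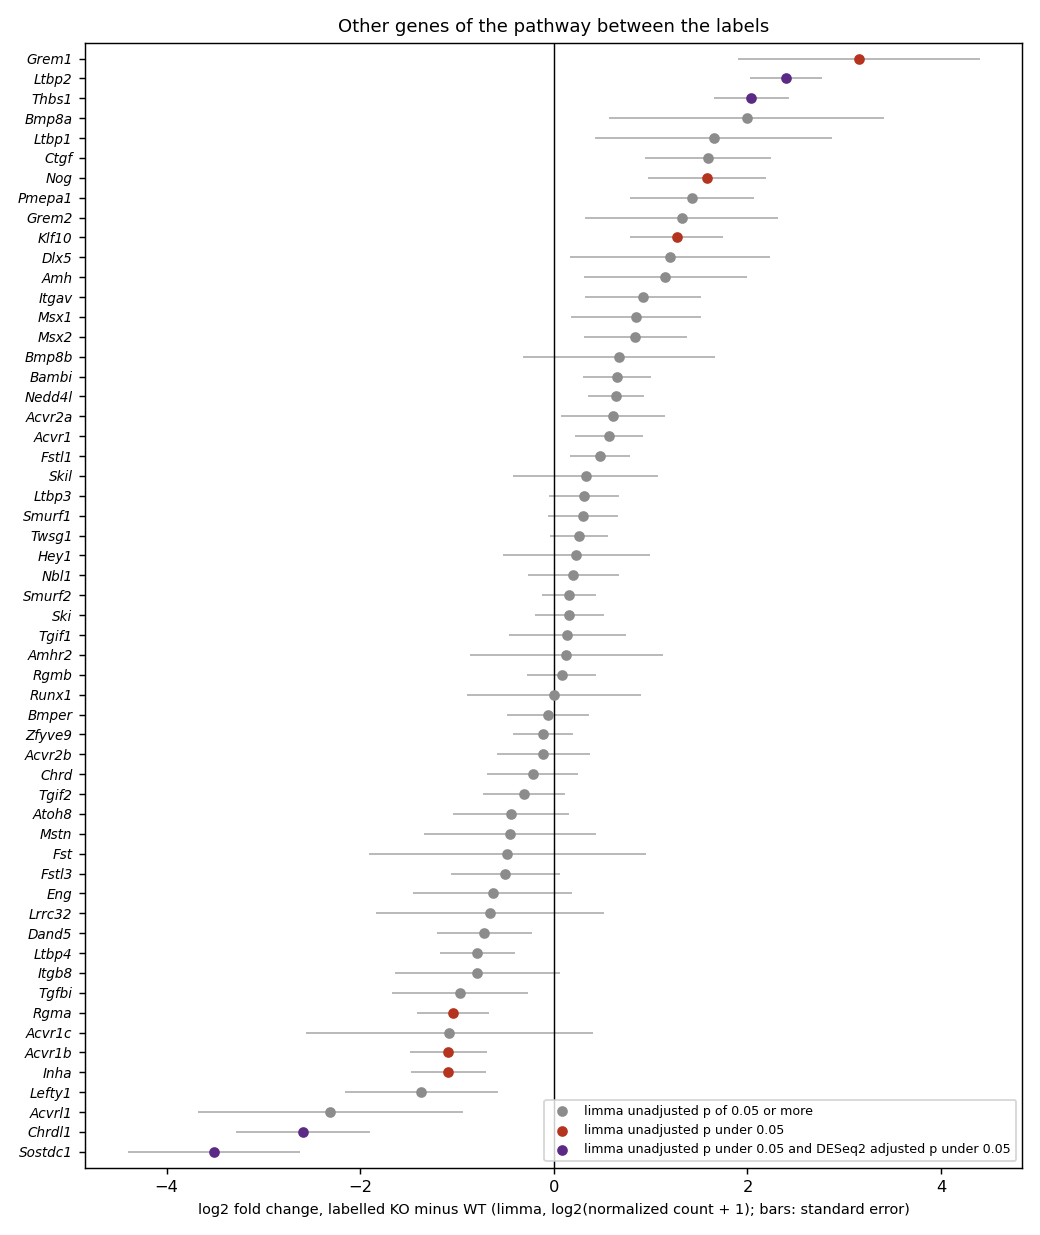
Log2 fold change of other pathway genes tested, libraries labelled KO minus WT, from limma on log2(normalized count + 1), with bars for the standard error and colours for the tests passed. The values run from -3.51 (Sostdc1) to 3.15 (Grem1), and Ltbp2, Thbs1, Chrdl1 and Sostdc1 carry the colour for genes that also passed in DESeq2.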

How the data were processed

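RNA-seq of 2 WT and 2 KO-labelled astrocyte libraries was analysed, with groups from GEO's labels. The authors cleaned the paired-end reads and placed them on mm10; aligner, counter and annotation are not given in the sources used here. The deposited values are a signal per gene and library, read counts divided by a size factor, where the design had assumed FPKM; 100% of values were whole reads (within 0.1 read), so reads were recovered. The authors' group means, fold changes and p-values were not used.

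limma 3.58.1 (R 4.3.3; lmFit, eBayes with trend) was run on log2(normalized count + 1) over the 22094 genes averaging at least 1, and p-values were adjusted by Benjamini-Hochberg. edgeR 4.0.16 (quasi-likelihood) and DESeq2 1.42.0 were applied to the recovered reads, from which FPKM was also derived with the gene lengths. Fits were also run on simulated counts that had the same spread for every gene and for both labels. In these data the KO-labelled pair was more uneven than the WT pair, so that run does not measure error rates here. Overlaps used GENCODE M21 (GRCm38), in which 14 of 41 members overlap another gene, 12 on the other strand; 40 of 41 positions were the same. Depth limits precision to counting and library spread: 3 reads were 2.70 to 3.21 normalized counts, and an exact permutation test of 2 against 2 cannot go below p = 0.33.

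The members and gene lists were chosen with earlier results of these data known. Named with all values were members at an unadjusted limma p or DESeq2 adjusted p under 0.05, the ID genes, and the gene with the highest FPKM of each role, likewise for the other pathway genes by limma p and FPKM. Other genes given with values were chosen after their values were seen. A gene counted among the other pathway genes is not reported here by name or drawn in the plots. Alternatives were other pseudocounts, filters, scalings, FPKM, no variance trend, leaving out each library, a replicate block, edgeR and DESeq2. Tables and plots used Python 3.11.15, pandas 2.3.3, numpy 2.4.6 and matplotlib 3.10.9.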

Additional observations from a re-analysis of the deposited data

How the results depend on the processing

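Of 528 values for 33 named genes under the alternatives, 431 kept their direction and side of the unadjusted threshold, 63 lost and 15 gained the threshold, and 19 changed sign. Members lower at an unadjusted p under 0.05 (2) numbered 1 with a mean minimum of 10, quantile normalization, FPKM, no variance trend or the replicate block, and 1 to 5 with a library left out. Members higher (2) numbered 1 with no variance trend and 0 to 5 with a library left out. Adjusted calls among members were 0, and 3 in DESeq2. Shares of all genes at an unadjusted p were counted only for the main fit, edgeR and the fits that leave out 1 library. The other counts at an unadjusted p given here have no such background. The members' median was -0.40 to 0.00, and 20 to 34 members did not overlap between the labels (54.1% to 91.9%, beside 64.3% to 80.1% of all genes), with a library left out, where fewer libraries overlap less by construction. Other pathway genes lower (5) numbered 3 with no variance trend or the replicate block and 0 to 8 with a library left out. Those higher (5) numbered 3 with a pseudocount of 0.1, equal sums, TMM or FPKM, 2 with a mean minimum of 10 or no variance trend, 8 in DESeq2, and 1 to 11 with a library left out.

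Same-numbered libraries did not deviate together (correlation -0.08), so the replicate block is given here only: 2 members were higher (Bmp4 and Gdf6, unadjusted p = 0.0152 and 0.0199 in limma) and 1 lower (Tgfbr3), Smad2 and Bmp7 lost their calls (0.0618 and 0.0690), and 7 other pathway genes were higher and 3 lower. The share of all genes called was not counted in that fit, so no background stands beside these counts. Quantile normalization moved the median of all genes from -0.07 to 0.08, and Id3 to -0.05. Id4 was 0.10 in edgeR and 0.13 in DESeq2, and Tgfb3 0.01 in DESeq2. With a library left out the range was -1.47 to 0.46 for Bmp6, -0.46 to 0.32 for Gdf11, -0.68 to 1.07 for Id2, -0.74 to 1.00 for Id3, -1.03 to 0.77 for Id4, -0.82 to 0.07 for Inhbb, -0.38 to 0.08 for Smad4, -0.42 to 0.42 for Tgfb3, -0.20 to 0.52 for Ski and -0.05 to 1.36 for Tet1. The cause was not tested. With 2 libraries a label, differences of members under 3 reads were not detectable at this depth.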
